A study of Homo sapiens with 46 samples.

Results

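The transcripts described here were assembled from RNA-seq reads of endoderm and mesoderm cells and carried no Ensembl gene. They were chosen as every row of the endoderm and mesoderm transcript tables with NA in the Ensembl gene column, with no measured value used. This gave 342 of 30409 endoderm transcripts (1.12%) at 266 loci and 189 of 36407 mesoderm transcripts (0.519%) at 168 loci, together 531 of 66816. The study's 4 cell-type tables hold 153960 transcripts in all.

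RNA in a nucleus can be bound to chromatin, free in the nucleoplasm or on its way to the cytoplasm, where mature mRNAs are translated. Long noncoding and incompletely processed RNAs are commonly retained on chromatin. Ribosomal RNA is made in the nucleolus from repeated gene copies that reference genomes place partly on unplaced scaffolds, and its precursor is cut into the mature rRNAs before export. An assembler reports a transcript without a gene wherever reads pile up outside the gene models it was given, which can happen at such repeats, beside annotated genes or at genes the annotation lacks.

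All cells came from H1, an established human pluripotent stem cell line. Endoderm cells were grown with WNT3A and Activin A, and mesoderm cells with VEGF, BMP4 and bFGF plus Activin A during the first day only; both were harvested after 5 days. The labels name no genetic change, and the buffers of the fractionation held α-amanitin, an inhibitor of RNA polymerase II. Each cell type was split into cytoplasm, whole nucleus, nucleoplasm and chromatin, with 3 libraries per fraction except mesoderm nucleoplasm, which had 1. Nothing in the labels says that the repeats came from separate cultures, so the p-values measure the spread between these libraries, which may be technical.

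Libraries held 7899619 to 18360084 counts in endoderm and 4990408 to 17143491 in mesoderm. Of 10 endoderm markers, all 10 were in the endoderm table and 1 was in the mesoderm table, and SOX17 (46.9 to 189 CPM, which are counts scaled to a common library total) was absent from the latter. Of 12 mesoderm marker symbols, 9 were in the endoderm and 8 in the mesoderm table. Summed they reached 296 to 573 CPM in endoderm and 205 to 500 CPM in mesoderm. Among early mesoderm markers MESP1, MIXL1 and KDR were not in the mesoderm table while TBXT stayed at 0 to 0.301 CPM there. HAND1 held 24.9 to 136 CPM in mesoderm (17.0 to 72.3 in endoderm), MSX2 34.4 to 126 (32.3 to 132) and BMP4 131 to 267 (103 to 193). MSX1, at 2.29 to 9.11 CPM, was in the mesoderm table only. PDGFRA, TBX6 and SNAI2 reached at most 11.6, 5.21 and 8.69 CPM in mesoderm. Of 7 pluripotency genes, 6 were in the endoderm and 4 in the mesoderm table. POU5F1 and LIN28A were present in both, POU5F1 at 164 to 935 CPM in mesoderm libraries. SOX2 was in neither table, and NANOG and TDGF1 were not in the mesoderm table. KCNQ1OT1, a nuclear noncoding RNA, averaged 9.44 CPM on endoderm chromatin against 0.839 CPM in cytoplasm, and 57.6 against 2.60 CPM in mesoderm. Other nuclear noncoding RNAs were less separated: in endoderm SNHG14 averaged 465 CPM in cytoplasm, 185 in nuclei, 563 in nucleoplasm and 1064 on chromatin, and MALAT1 averaged 126, 130, 875 and 447 CPM. In mesoderm SNHG14 averaged 469 CPM in cytoplasm, 1043 in nuclei, 325 in nucleoplasm and 1828 on chromatin, and MALAT1 172, 318, 897 and 558 CPM. Of the cytoplasmic controls, GAPDH averaged 4830 CPM in endoderm cytoplasm and 533 on chromatin, and EEF1A1 20948 and 2595 CPM. In mesoderm GAPDH averaged 2764 and 783 CPM, and EEF1A1 28989 and 6351 CPM. Mitochondrial genes took 0.423% to 0.460% of counts in endoderm cytoplasm and 8.09% to 16.1% in endoderm nuclei, the opposite order to mesoderm (5.84% to 7.46% and 1.11% to 1.36%).

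Most of these transcripts were rare, and a few were among the most abundant RNAs of their library. The median of the mean TPM (a level corrected for transcript length and library total) was 0.259 for the 342 endoderm transcripts against 3.36 for all endoderm transcripts, and 0.778 for the 189 mesoderm transcripts against 3.31 for all. A mean of at least 1 TPM was reached by 86 of 342 (25.1%) in endoderm and by 85 of 189 (45%) in mesoderm, compared with 71.9% and 72.9% of all transcripts. In endoderm 89 of them had fewer than 10 counts over all 12 libraries, and 2 had none. The 3 transcripts with the most counts held 75.9% of all counts of the endoderm set and 82.9% of the mesoderm set.

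Most loci were small. In endoderm 222 of 266 loci held a single transcript, the largest held 12, and 24 transcripts lay at loci that also held an Ensembl gene. In mesoderm 154 of 168 loci held a single transcript, the largest held 7, and 6 transcripts shared a locus with an Ensembl gene. Lengths were estimated from the ratio of counts to TPM, with a median of 3319 nucleotides for the 115 endoderm and 3795 for the 108 mesoderm transcripts that allowed it, beside 2769 and 3205 for all transcripts. On held-out Ensembl transcripts the estimate divided by the known length had a median of 1.00, with 5th and 95th percentiles of 0.822 and 2.94 for endoderm and of 0.845 and 3.26 for mesoderm. The estimate was fitted and checked only on Ensembl transcripts of middle length. The shortest and longest estimates given below lie outside that range and were not checked.

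The tables give no coordinates, but locus numbers follow the genome: consecutive loci with a known gene lay on the same chromosome in 98.2% (endoderm) and 98.1% (mesoderm) of cases, with median gaps of 178 and 109 kb between gene starts in GENCODE 29 (GRCh38). The gene starts lay within 1 Mb in 67.4% (endoderm) and 71.6% (mesoderm) of these same-chromosome cases, so flanking genes can lie far apart. A transcript is placed here by the annotated genes on either side in that numbering, which gives a neighbourhood and not a position. By this measure 14 endoderm and 25 mesoderm transcripts fell at the end of the numbering, next to unplaced scaffolds or the mitochondrial genome, and the other 328 and 164 among the chromosomes (3 and 5 of them where the numbering passes from 1 chromosome to the next). The end transcripts had a median of 917 TPM in endoderm and 3.29 TPM in mesoderm, while the chromosome-numbered ones had medians of 0.233 and 0.626 TPM.

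The share of library counts was set by the end transcripts. In endoderm they took 1.91%, 2.81% and 1.85% of counts in the 3 cytoplasm libraries, 0.261%, 3.11% and 1.21% in nuclei, 0.976%, 2.85% and 2.27% in nucleoplasm, and 4.42%, 4.14% and 5.79% on chromatin. In mesoderm they took 1.19%, 1.39% and 2.29% in cytoplasm, 5.47%, 0.892% and 2.41% in nuclei, 4.53% in the single nucleoplasm library, and 8.25%, 9.49% and 3.28% on chromatin. Chromatin libraries lay above all cytoplasm libraries in both cell types, and nuclear libraries of 1 group differed several-fold.

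Chromosome-numbered transcripts took far smaller shares. In endoderm these were 0.187%, 0.336% and 0.330% of cytoplasm counts, 0.0769%, 0.106% and 0.112% of nuclear, 0.116%, 0.104% and 0.113% of nucleoplasm and 0.196%, 0.181% and 0.193% of chromatin counts. In mesoderm they were 0.0563%, 0.0558% and 0.0518% of cytoplasm counts, 0.0704%, 0.0611% and 0.0860% of nuclear, 0.0471% of nucleoplasm and 0.139%, 0.118% and 0.0986% of chromatin counts. As a sum, the cytoplasm share was above the nuclear share in every endoderm library (ratio of means 2.885) and below it in every mesoderm library (ratio 0.753). Each of these separations gave p = 0.1 in a two-sided exact permutation test over libraries, the smallest that 3 against 3 allows. A few abundant transcripts carried much of the endoderm sum. Without the 5 of highest mean cytoplasm CPM (END.14894.1, END.1400.3, END.3762.1, END.13762.1 and END.2908.1) the endoderm ratio was 1.35 and the libraries overlapped, at 0.0694%, 0.0961% and 0.0873% of cytoplasm and 0.0403%, 0.0780% and 0.0695% of nuclear counts. The same step gave 0.410 in mesoderm, without overlap. Counted per transcript by edgeR with TMM scaling, 19 of 137 chromosome-numbered endoderm transcripts tested were higher and 33 lower in cytoplasm than in nuclei (median log2 change −0.42). Of all endoderm transcripts tested, 19.3% were higher and 22.9% lower. In mesoderm 7 of 128 were higher and 38 lower (median −1.45), beside 15.3% and 16.8% of all. The endoderm direction depended on scaling: with total counts, 30 of all 149 endoderm transcripts without a gene tested were higher and 25 lower. Of all endoderm transcripts, 7109 were then higher and 4626 lower. In such bulk fractions, fewer cells of a type and less RNA per cell cannot be told apart. CPM are shares of each library's own counts, so a higher value in a fraction need not mean more RNA per cell there. The same limit applies to the fold changes given below.

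**Figure D1:**
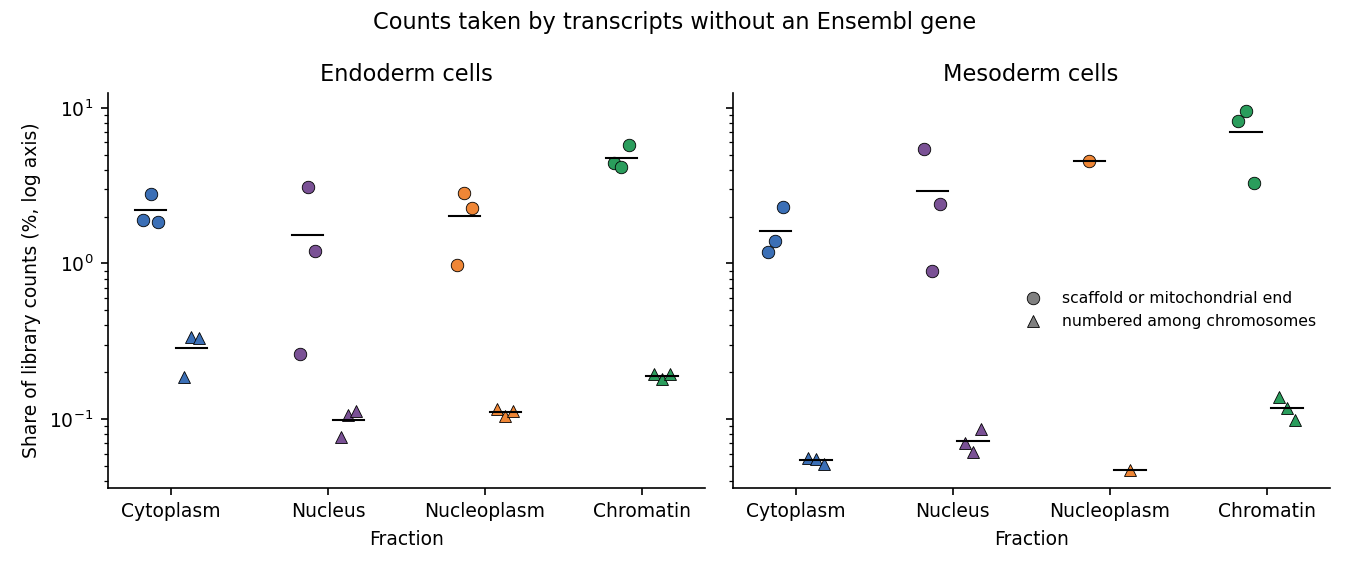
Share of each library's counts (%, log axis) taken by transcripts without an Ensembl gene, by fraction, for endoderm (left) and mesoderm (right). Each symbol is a library and the bars are means; circles are transcripts at the scaffold or mitochondrial end and triangles are chromosome-numbered ones, whose summed cytoplasm share lies above the nuclear one in endoderm, through a few abundant transcripts (ratio 2.885, and 1.35 without 5 of them), and below it in mesoderm.

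The 6 endoderm transcripts with the most counts were numbered among scaffold genes. END.15119.1, END.15120.1, END.15122.1 and END.15117.1 lay between ENSG00000273739, annotated as a miscellaneous RNA gene, and the rRNA gene 5_8S_rRNA (ENSG00000275757, at 173956 to 174108 of that scaffold in GENCODE 29); END.15114.1 and END.15110.1 were numbered before ENSG00000273739, after a U1 small nuclear RNA gene. Ribosomal RNA genes exist in many near-identical copies, so counts could be split between copies and each single value is uncertain.

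Of these 6, END.15119.1, END.15120.1 and END.15122.1 were present at high levels in all fractions. END.15119.1 measured 5658, 8942 and 5990 CPM in cytoplasm, 655, 10322 and 4182 in nuclei, 2770, 8242 and 6451 in nucleoplasm and 12620, 8294 and 16291 on chromatin. END.15122.1 measured 9043, 13303 and 7847 CPM in cytoplasm, 550, 4351 and 2024 in nuclei, 4449, 12708 and 10605 in nucleoplasm and 7099, 7058 and 9430 on chromatin. END.15120.1 ranged from 555 to 11658 CPM. Nucleus replicate 1 was the lowest library for all 3 of them. END.15120.1 was above cytoplasm in every chromatin library but did not pass the test (log2 change 0.77, SE 0.64, adjusted p = 0.36 by edgeR). END.15122.1 was higher in cytoplasm than in nucleus without overlap (log2 change 1.77, SE 0.57, adjusted p = 0.028 by edgeR's quasi-likelihood test with Benjamini-Hochberg adjustment). That call was lost without cytoplasm replicate 1 (adjusted p = 0.0504) or 2 (0.0916), and without nucleus replicate 1 (0.0546) or 3 (0.0873).

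The other 3 were high on chromatin and low or at 0 in most cytoplasm and nucleoplasm libraries. END.15117.1 measured 0.109, 6.32 and 20.7 CPM in cytoplasm and 4.60, 25.9 and 31.2 in nucleoplasm, against 383, 4453 and 1675 in nuclei and 7871, 10659 and 11605 on chromatin. Every chromatin library was above every library of the other fractions. The log2 change was 9.98 for chromatin against cytoplasm (SE 1.61, adjusted p = 0.00044 by edgeR), 8.16 for chromatin against nucleoplasm (SE 1.50, adjusted p = 0.0020) and −8.26 for cytoplasm against nucleus (SE 1.51, adjusted p = 0.0012).

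END.15114.1 measured 4149, 3901 and 5115 CPM on chromatin and 267, 3316 and 907 CPM in nuclei. It had 0 counts in all nucleoplasm and 2 cytoplasm libraries, while cytoplasm replicate 3 held 248 CPM. Chromatin was at least 20360-fold above nucleoplasm, against a floor of 3 counts per library (adjusted p = 0.016 by edgeR); the difference from cytoplasm did not pass the test (adjusted p = 0.082). END.15110.1 measured 3647, 4477 and 3662 CPM on chromatin, 1215 CPM in nucleus replicate 2, and 0 counts in the other 8 libraries. Chromatin was at least 22077-fold above cytoplasm (adjusted p = 0.030 by edgeR), a call that leaving out any 1 of the 6 chromatin and cytoplasm libraries ended (adjusted p from 0.0549 to 0.0674).

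The mesoderm table showed a like division among its end transcripts, numbered beside RNA5-8SN4, a copy of the same kind of rRNA gene, or beside scaffold genes. MES.17678.1, the most counted of the set, measured 5819, 6649 and 10392 CPM in cytoplasm, 16550, 2988 and 236 in nuclei, 24128 in the nucleoplasm library and 673, 27016 and 958 on chromatin. MES.17688.1 moved with it, at 434 CPM in nucleus replicate 3 and 24896 CPM in chromatin replicate 2. MES.17648.1 did too, at 11.5 CPM and 1706 CPM in those 2 libraries. In all 3 transcripts chromatin replicate 2 stood far above chromatin replicates 1 and 3. None of the 3 passed a test between fractions (adjusted p from 0.75 to 0.97 by edgeR).

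MES.17685.1, of about 4039 nucleotides by the length estimate, measured only 114, 38.1 and 111 CPM in cytoplasm and 114 CPM in nucleoplasm, against 9659, 839 and 18615 in nuclei and 63406, 20097 and 27529 on chromatin. Its cytoplasm libraries lay below all nuclear and chromatin ones. The log2 change was 8.12 for chromatin against cytoplasm (SE 1.26, adjusted p = 0.0019 by edgeR) and −6.44 for cytoplasm against nucleus (SE 1.17, adjusted p = 0.0047). MES.17689.1 had the same order, at 19.4 to 48.3 CPM in cytoplasm and 1835 to 16709 CPM on chromatin (log2 change 7.42, SE 1.24, adjusted p = 0.0025 by edgeR). MES.17679.1 measured 6606 and 955 CPM in nucleus replicates 1 and 2 and 10656 CPM in chromatin replicate 2, but had 0 counts in nucleus replicate 3 and in chromatin replicates 1 and 3. It passed neither test (adjusted p = 0.28 and 0.25 by edgeR). MES.17687.1 had the reverse order among chromatin libraries, at 367 and 490 CPM in chromatin replicates 1 and 3 and 0 counts in chromatin replicate 2; it passed neither test (adjusted p = 0.13 and 0.052).

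**Figure D2:**
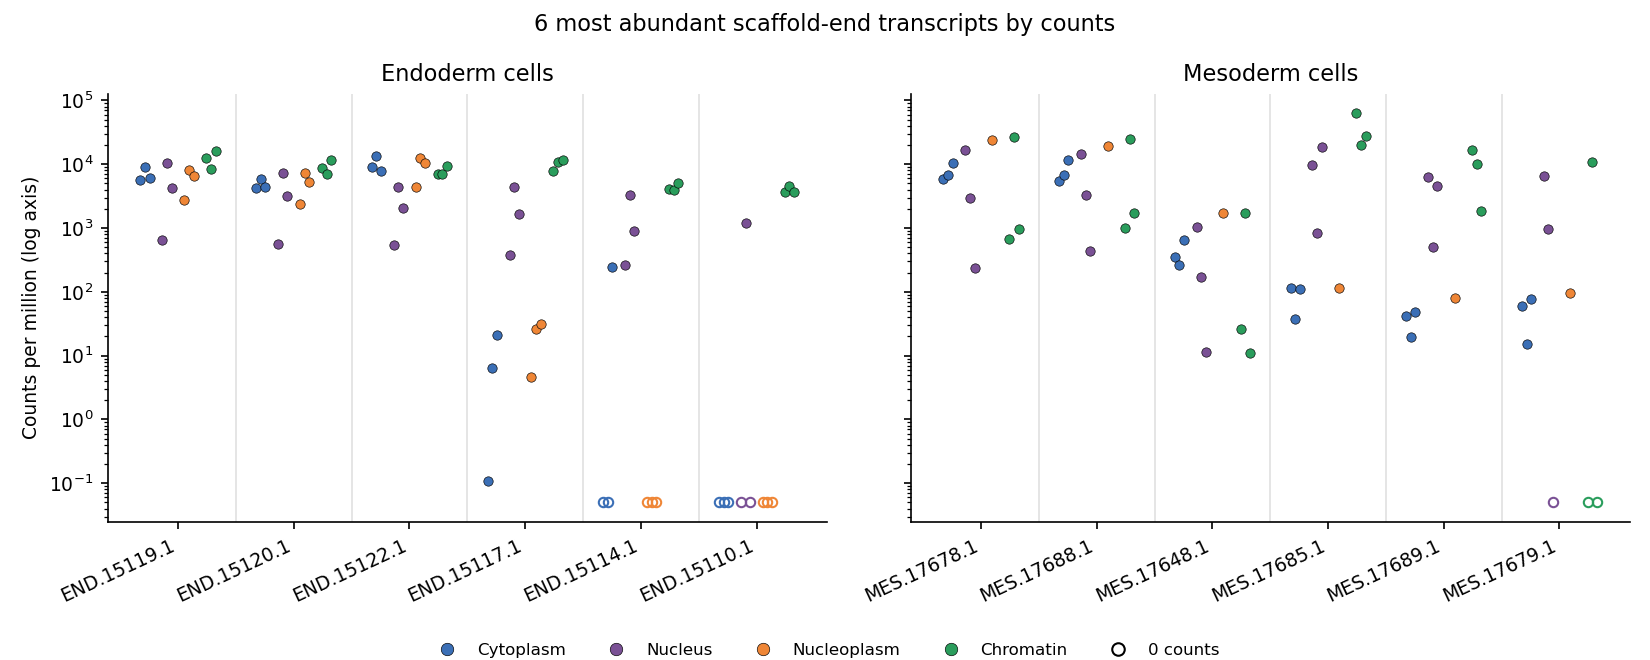
CPM (log axis) in every library for the 6 endoderm (left) and 6 mesoderm (right) scaffold-end transcripts with the most counts; colours are fractions and open circles are libraries with 0 counts. END.15117.1, END.15114.1 and END.15110.1, and MES.17685.1 and MES.17689.1, are high in nuclear or chromatin libraries and low in cytoplasm and nucleoplasm, while the first 3 of each panel are present in all fractions.

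A further pair of end transcripts bordered the mitochondrial genome. END.15127.1 was numbered just before MT-RNR1, the mitochondrial small-subunit rRNA gene (M, 648 to 1601), and MES.17652.1 stood before the same gene in the mesoderm numbering; both had an estimated length of 406 nucleotides. END.15127.1 measured 1.31, 0.791 and 1.32 CPM in cytoplasm, 62.6, 75.6 and 51.8 in nuclei, 52.2, 60.4 and 58.7 in nucleoplasm and 43.1, 21.3 and 15.7 on chromatin. Cytoplasm lay below every other library (log2 change against nucleus −6.28, SE 0.44, adjusted p = 2.3e-06 by edgeR). END.15150.1, numbered after MT-CYB, the cytochrome b gene, fell in the same way, from 93.2 to 127 CPM in nuclei to 6.96 to 7.68 CPM in cytoplasm (log2 change −4.44, SE 0.25, adjusted p = 7.5e-07 by edgeR). The share of annotated mitochondrial genes, given above, was also lower in endoderm cytoplasm than in endoderm nuclei, and its part in these values was not tested.

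MES.17652.1 did not pass that test. It measured 15.7, 110 and 26.4 CPM in mesoderm cytoplasm, 13.7, 25.6 and 17.8 in nuclei, 14.9 in nucleoplasm and 21.8, 13.6 and 50.2 on chromatin. The cytoplasm and nuclear libraries overlapped (log2 change 1.78, SE 0.78, adjusted p = 0.12 by edgeR), and the log2 change was −0.33 on log2(TPM + 1).

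A pair of transcripts ranked high in TPM but not in counts. Deposited TPM implied an effective length of 0 at 303 nucleotides in endoderm and 306 in mesoderm. END.15121.1 (estimated length 308 nucleotides) and END.14019.1 (310 nucleotides, numbered on chromosome 21 between the long noncoding RNA genes ENSG00000281383 and ENSG00000280441) had ranks 3 and 4 by mean TPM in the endoderm set, at a mean of 10964 and 9827 TPM. In counts END.15121.1 held 2.75 to 71.3 CPM and END.14019.1 held 2.28 to 80.9 CPM, with the fractions overlapping and the lowest value of both in nucleus replicate 1.

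Among transcripts with at least 10 counts per library on average, chromatin was the most frequent place of the highest mean CPM. This held for 75 of 115 endoderm transcripts (65.2%), against 41.1% of all endoderm transcripts, and for 92 of 110 mesoderm transcripts (83.6%), against 40.5% of all. Cytoplasm was highest for 32 (27.8%) in endoderm and 11 (10.0%) in mesoderm, where all transcripts gave 42.6% and 29.1%. New isoforms of Ensembl genes, which also come from the assembly, were highest on chromatin in 61.8% and 62.7% of cases, and listed Ensembl transcripts in 27.3% and 24.5%. These shares describe the 2 tables side by side; the tables come from separate assemblies.

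**Figure D3:**
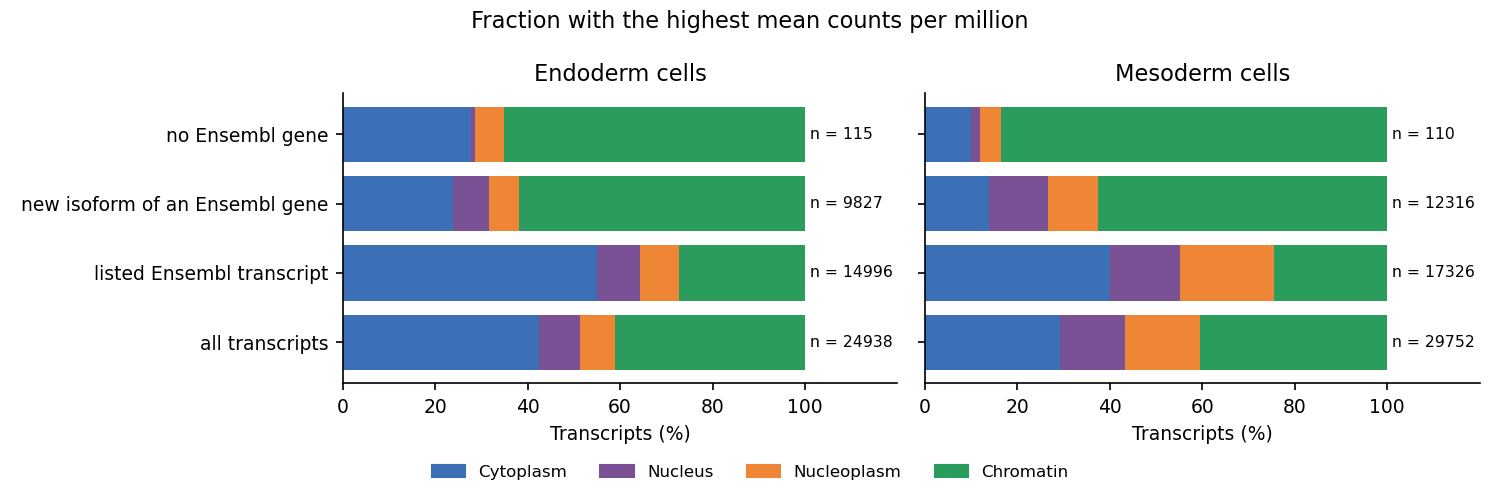
Percentage of transcripts whose highest mean CPM fell in each fraction, by transcript class, for endoderm (left) and mesoderm (right), among transcripts with at least 10 counts per library on average (n beside each bar). Mesoderm nucleoplasm is a single library. Transcripts without an Ensembl gene were highest on chromatin in 65.2% (endoderm) and 83.6% (mesoderm) of cases, and listed Ensembl transcripts in 27.3% and 24.5%.

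Chromatin was next compared with cytoplasm. Of the 342 endoderm transcripts, 149 passed the filter on low counts, and 60 of these were higher and 19 lower on chromatin at an adjusted p under 0.05 (edgeR), with a median log2 change of 1.51. Over all 26389 endoderm transcripts tested, 49.7% passed, 25.3% higher and 24.4% lower, with a median of −0.04. Of the 189 mesoderm transcripts, 153 passed the filter, and 71 were higher and 6 lower on chromatin (median 1.96), where 40.4% of all 34688 tested passed, 20.7% higher and 19.8% lower (median −0.01). The filter was looser in mesoderm, because it takes its least number of libraries from the smallest group. That group was the single nucleoplasm library. With only chromatin and cytoplasm fitted, 121 mesoderm transcripts were tested, 69 higher and 6 lower, and 42.0% of all passed. The even split of all transcripts held with TMM. On log2(TPM + 0.1), tested with limma, 9458 of all endoderm transcripts were higher and 4483 lower on chromatin, and 16057 and 1504 in mesoderm, where total counts gave 10092 and 3945. The transcripts without a gene split 81 to 16 in endoderm and 108 to 2 in mesoderm on log2(TPM + 0.1), and 86 to 3 in mesoderm with total counts. With TMM, new isoforms of Ensembl genes had medians of 1.15 in endoderm and 1.27 in mesoderm.

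Cytoplasm was also compared with the whole nucleus. In endoderm 20 of 149 were higher and 36 lower in cytoplasm (median −0.40), beside 42.1% of all transcripts that passed, 19.3% higher and 22.9% lower (median −0.01), so that the endoderm set lay near the background. The split depended on scaling: with total counts in place of TMM scaling factors 30 were higher and 25 lower, and the median of all transcripts moved to 0.45. On log2(TPM + 1) 21 were higher and 17 lower. Of all endoderm transcripts, 7109 were higher and 4626 lower with total counts, and 6100 and 5307 on log2(TPM + 1). In mesoderm 7 of 153 were higher and 47 lower (median −1.44), beside 32% of all that passed, 15.3% higher and 16.8% lower (median −0.06); on log2(TPM + 0.1) 2 were higher and 81 lower, with a median of all of −1.21. Without nucleus replicate 3 the mesoderm count of 54 calls became 21, without nucleus replicate 1 it became 28, and without cytoplasm replicate 1, 2 or 3 it became 30, 29 or 27. Calls over all transcripts fell too. The share of this set went from 35.3% to 13.5% without nucleus replicate 3 and 18.9% without nucleus replicate 1, beside 21.3% and 21.0% of all. Without cytoplasm replicate 1, 2 or 3 it was 20.3%, 19.7% or 18.2%, beside 23.2%, 21.8% or 22.5% of all. Without nucleus replicate 2 there were 52 calls (33.3%, beside 28.3% of all).

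Chromatin and nucleoplasm could be compared in endoderm, where both had 3 libraries. Of 149 transcripts 12 were higher and 9 lower on chromatin (median 0.21), beside 29.9% of all that passed, 11.8% higher and 18.1% lower (median −0.10). This count changed between settings, some of which also change the model, the measure or the filter. With RLE size factors 13 were higher and 9 lower, close to the TMM counts, whereas 31 were higher and 3 lower with total counts (median of all 0.66), 57 and 3 on log2(TPM + 1), 40 and 3 on log2(TPM + 0.1), 26 and 10 with DESeq2, and 25 and 12 when only these 2 fractions were fitted. All transcripts moved as well, to 6299 higher and 1993 lower with total counts, 8660 and 2213 on log2(TPM + 1), and 7489 and 2053 on log2(TPM + 0.1). They split 4759 to 5116 with DESeq2 and 4229 to 4508 with only these 2 fractions. The shares called were 22.8% of this set against 31.4% of all with total counts, and 40.3% against 41.2% on log2(TPM + 1). On log2(TPM + 0.1) they were 28.9% against 36.2%.

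**Figure D4:**
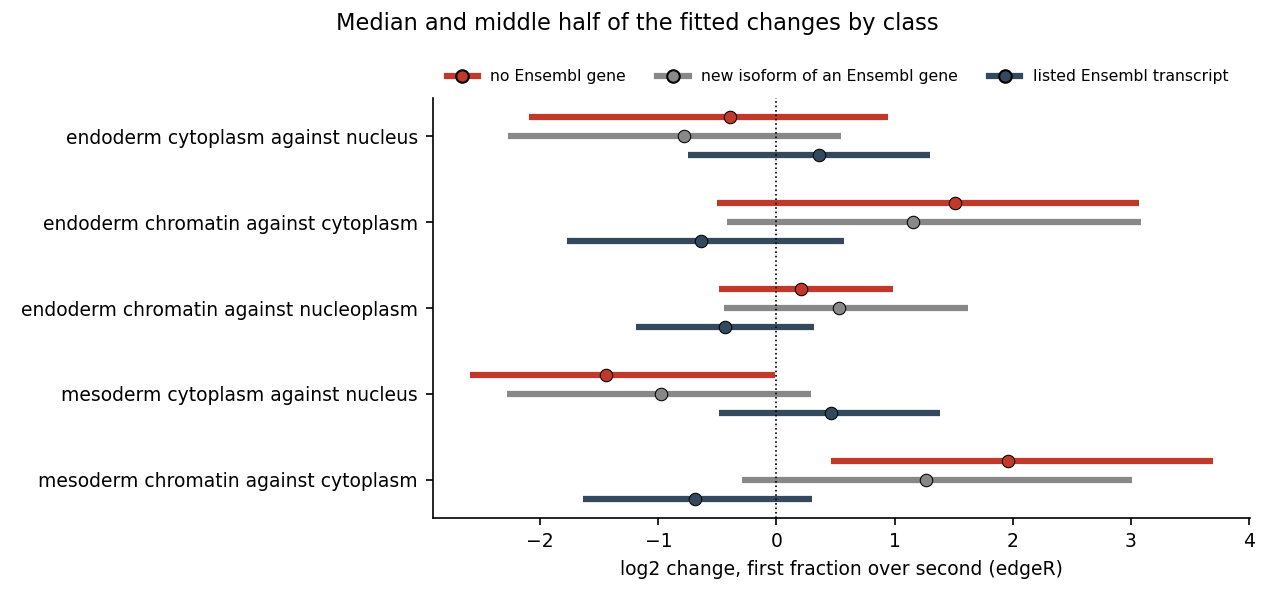
Median (circle) and interquartile range (bar) of the fitted log2 change for transcripts without an Ensembl gene, new isoforms of Ensembl genes and listed Ensembl transcripts, in the 5 comparisons between fractions. For chromatin against cytoplasm the transcripts without a gene had medians of 1.51 in endoderm and 1.96 in mesoderm.

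Single chromosome-numbered transcripts fell into cytoplasmic and chromatin patterns. END.1400.3, an endoderm transcript of about 5693 nucleotides and numbered on chromosome 1 between NVL (224227334 to 224330387) and TLR5 (223109406 to 223143282), measured 343, 550 and 538 CPM in cytoplasm, 106, 65.4 and 107 in nuclei, 90.0, 79.9 and 79.8 in nucleoplasm and 43.8, 51.6 and 46.1 on chromatin. All cytoplasm libraries were above all others (log2 change against nucleus 1.83, SE 0.28, adjusted p = 0.00039; chromatin against cytoplasm −3.48, SE 0.30, adjusted p = 5.8e-06, both by edgeR).

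Others with this pattern, named here after their values were seen, were END.3762.1 on chromosome 4 (between SPCS3, a signal peptidase subunit, and AGA, a lysosomal enzyme) and END.14894.1 on chromosome X (between CAPN6 and KCNE5). END.3762.1 measured 285, 461 and 489 CPM in cytoplasm and 90.2, 75.3 and 95.1 CPM in nuclei (log2 change 1.74, SE 0.24, adjusted p = 0.00017 by edgeR). END.14894.1 measured 331, 586 and 570 CPM in cytoplasm and 105, 97.6 and 150 CPM in nuclei (log2 change 1.59, SE 0.26, adjusted p = 0.00062 by edgeR). Both were higher in every cytoplasm library than in any other library.

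END.13762.1, numbered on chromosome 20 between CTNNBL1 and DHX35, an RNA helicase gene, measured 140, 452 and 474 CPM in cytoplasm against 30.2 to 50.1 CPM in nuclei and 18.9 to 32.9 CPM on chromatin (log2 change of chromatin against cytoplasm −3.93, SE 0.46, adjusted p = 5.0e-05 by edgeR). END.2908.1, numbered on chromosome 3 between NFKBIZ, a regulator of NF-κB, and C3orf52, measured 75.7, 352 and 354 CPM in cytoplasm against 16.4 to 25.5 CPM in nuclei and 11.4 to 15.0 CPM on chromatin (log2 change −4.45, SE 0.55, adjusted p = 6.8e-05 by edgeR). For these and the 3 preceding transcripts cytoplasm replicate 1 was the lowest of its group. END.15069.1, numbered on chromosome X between ASMTL and TMLHE, had 47.8 to 75.5 CPM in cytoplasm and 10.3 to 20.5 CPM in every other library.

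Of these 6 transcripts, 5 were also lower on chromatin than in nucleoplasm, and END.2908.1 did not pass that test (adjusted p = 0.059 by edgeR). The log2 changes were −1.58 for END.1400.3 (SE 0.28, adjusted p = 0.0017 by edgeR), −1.57 for END.13762.1 (adjusted p = 0.018), −1.36 for END.15069.1 (0.00079), −1.32 for END.14894.1 (0.0033) and −1.21 for END.3762.1 (0.0029). END.1400.3 kept its call with total counts and with TPM, and the other 4 lost it with each of these; END.13762.1 also lost it without chromatin replicate 1 (adjusted p = 0.0663) or 3 (0.0561).

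Several isoforms of locus END.3597, numbered on chromosome 4 between DMP1 and SMARCAD1-DT, shared the cytoplasmic pattern. Its 6 transcripts summed to 160, 254 and 218 CPM in cytoplasm, 20.3, 36.9 and 39.1 in nuclei, 86.9, 70.4 and 82.7 in nucleoplasm and 95.4, 95.1 and 87.7 on chromatin. END.3597.1 measured 46.7, 77.3 and 50.0 CPM in cytoplasm and 0.201, 6.03 and 2.34 CPM in nuclei (log2 change 4.01, SE 0.71, adjusted p = 0.0010 by edgeR), and END.3597.5 43.8, 68.3 and 54.9 against 1.81, 7.63 and 6.09 CPM (log2 change 3.04, SE 0.42, adjusted p = 0.00019). END.3597.4 had 12.7, 21.0 and 11.7 CPM in cytoplasm and 0 counts in all nuclear libraries, at least 69.5-fold less there (adjusted p = 0.012 by edgeR). Whole nuclei were thus below both nucleoplasm and chromatin for this locus. Against chromatin, the cytoplasm excess of END.3597.1 (adjusted p = 0.033) was lost when any 1 of the 6 libraries was left out (0.0514 to 0.105), and that of END.3597.4 (0.038) when any but chromatin replicate 2 was (0.0675 to 0.0898).

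END.7131.1 had the opposite pattern. It was numbered on chromosome 9 between RNU6-785P, a U6 pseudogene, and EXD3, and measured 326, 222 and 359 CPM on chromatin, 85.7, 134 and 94.0 in nuclei, 16.5, 15.9 and 18.9 in nucleoplasm and 10.1, 8.27 and 7.83 in cytoplasm. The 4 fractions did not overlap. The log2 change was 4.97 for chromatin against cytoplasm (SE 0.22, adjusted p = 1.5e-07 by edgeR), 3.37 for chromatin against nucleoplasm (SE 0.21, adjusted p = 3.3e-06) and −4.05 for cytoplasm against nucleus (SE 0.21, adjusted p = 5.2e-07).

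Loci END.6209 and END.6210 were numbered on chromosome 8 between MRPL15, a mitochondrial ribosomal protein gene, and SOX17, a transcription factor of endoderm. END.6210.1 measured 79.7, 67.5 and 57.2 CPM on chromatin, 13.8, 20.0 and 29.8 in nuclei, 31.0, 22.8 and 24.6 in nucleoplasm and 1.36, 3.28 and 1.07 in cytoplasm (chromatin against cytoplasm log2 change 5.01, SE 0.43, adjusted p = 5.4e-06 by edgeR). Its sister isoform END.6210.4, named after its values were seen, had 189, 181 and 116 CPM on chromatin and 8.02 to 11.7 CPM in cytoplasm (log2 change 3.98, SE 0.32, adjusted p = 3.6e-06). END.6209.1, also named after its values were seen, had 51.5, 32.3 and 61.5 CPM on chromatin and 2.86 to 4.76 CPM in cytoplasm (log2 change 3.42, SE 0.33, adjusted p = 1.1e-05). None of the 3 passed the test of chromatin against nucleoplasm (adjusted p = 0.23, 0.085 and 0.10), although their chromatin libraries lay above the nucleoplasm ones.

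Weaker endoderm transcripts completed the set named by rule. END.6683.1, numbered on chromosome 9 between MELK and FAM27E3, rose from 0.182 to 0.752 CPM in cytoplasm to 5.35 to 8.12 CPM in nuclei (cytoplasm against nucleus log2 change −4.52, SE 0.68, adjusted p = 0.00033 by edgeR). END.4939.1 was numbered on chromosome 6 between FBXO9 (start 53051991) and ENSG00000285976 (start 63572012). It measured 0.163 to 0.486 CPM in cytoplasm and 10.2 to 23.5 CPM on chromatin (log2 change 5.55, SE 0.71, adjusted p = 9.0e-05 by edgeR). END.4937.1 differed between chromatin (2.15 to 8.00 CPM) and nucleoplasm (0.0697 to 0.487 CPM; log2 change 3.96, SE 0.97, adjusted p = 0.010). Its isoform END.4937.2 was instead higher in cytoplasm (10.6 to 18.2 CPM) than in nuclei (0.269 to 2.51 CPM; log2 change 3.42, SE 0.67, adjusted p = 0.0019), with 10.6 to 22.2 CPM on chromatin. END.4566.2, numbered next to DEK on chromosome 6, had 1.31, 6.14 and 8.08 CPM in cytoplasm and at most 3 counts in any chromatin library (adjusted p = 0.0019 by edgeR).

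In mesoderm the chromosome-numbered locus with the highest mean CPM was MES.4264, on chromosome 4 between ABRAXAS1, a DNA repair gene, and PPM1K, a mitochondrial phosphatase gene. Its 4 transcripts summed to 276, 277 and 251 CPM in cytoplasm, 173, 186 and 185 in nuclei, 166 in nucleoplasm and 240, 222 and 240 on chromatin. MES.4264.1 measured 52.4, 64.0 and 47.8 CPM in cytoplasm, 13.4, 17.1 and 12.8 in nuclei and 19.6, 11.1 and 20.7 on chromatin, and was higher in cytoplasm than in nuclei without overlap (log2 change 2.26, SE 0.27, adjusted p = 0.00082 by edgeR). MES.4264.3 measured 184, 180 and 161 CPM in cytoplasm and 93.0, 122 and 115 CPM in nuclei (log2 change 1.01, SE 0.15, adjusted p = 0.0022), but the direction turned on the TPM scale (−0.36, adjusted p = 0.20 by limma). Its chromatin libraries (184, 125 and 136 CPM) overlapped with cytoplasm before TMM scaling, and the log2 change of chromatin against cytoplasm was −0.83 (adjusted p = 0.0039 by edgeR) on counts with TMM, not past the threshold with total counts (adjusted p = 0.33), and 0.71 (adjusted p = 0.021 by limma) on log2(TPM + 1).

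MES.6219.1, at the locus of MYCT1 on chromosome 6, measured 30.8, 30.2 and 30.4 CPM in cytoplasm, 3.02, 3.06 and 3.11 in nuclei, 4.25 in nucleoplasm and 6.21, 4.90 and 2.05 on chromatin. Cytoplasm stood apart from every other library (log2 change against nucleus 3.65, SE 0.38, adjusted p = 0.00049 by edgeR). MES.3052.1, numbered on chromosome 3 between NR1D2, a circadian repressor gene, and SUSD5, had 26.9 to 31.1 CPM in cytoplasm and 11.8 to 13.8 CPM in nuclei (log2 change 1.49, SE 0.21, adjusted p = 0.0017), a call absent on log2(TPM + 1) (adjusted p = 0.72 by limma).

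MES.9337.1 (5.34 to 7.18 CPM in cytoplasm and 1.95 to 2.51 CPM in nuclei) and MES.8716.1 (12.2 to 14.6 and 7.53 to 10.9 CPM), both on chromosome 10, also passed the test of cytoplasm against nucleus (adjusted p = 0.026 and 0.040 by edgeR). MES.9337.1 lost it without any single library but cytoplasm replicate 1 (0.0701 to 0.0827), and MES.8716.1 without any but nucleus replicate 2 (0.0605 to 0.130). With total counts the edgeR calls of MES.9337.1 (adjusted p = 0.0625) and MES.8716.1 (0.155) were also lost, and that of MES.8716.1 with RLE size factors (0.0546); the replicate block gave 0.0595 and 0.0751. Against chromatin MES.9337.1 passed (adjusted p = 0.018) but not without chromatin replicate 2 (0.0517) or cytoplasm replicate 2 (0.0554) or 3 (0.0625), and MES.8716.1 passed (log2 change −1.43, adjusted p = 0.0069 by edgeR), also with each library left out in turn. With total counts neither of these passed (0.0808 for MES.9337.1; log2 change −0.83, adjusted p = 0.0608 for MES.8716.1). On log2(TPM + 1), tested with limma, MES.9337.1 passed neither test (log2 change 0.32, adjusted p = 0.50 for cytoplasm against nucleus; 0.47 for chromatin against cytoplasm). On log2(TPM + 1) both directions of MES.8716.1 turned (−0.40 and 0.12), without passing the test.

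Several chromatin-held mesoderm transcripts were long by the length estimate and weakly counted. MES.6062.1, of about 9660 nucleotides and numbered on chromosome 6 next to PPIL6, measured 14.6, 8.78 and 20.8 CPM on chromatin, 6.64, 2.51 and 12.2 in nuclei and 0.586, 0.700 and 0.444 in cytoplasm (chromatin against cytoplasm log2 change 4.07, SE 0.66, adjusted p = 0.0022 by edgeR). MES.11000.1 and MES.10998.1, about 10002 and 11447 nucleotides long and numbered at or next to KRT19P2, a keratin pseudogene on chromosome 12, measured 14.2, 6.62 and 18.0 CPM and 4.01, 5.59 and 15.8 CPM on chromatin. In cytoplasm both had at most 0.148 CPM, that is 2 counts or fewer in every library (adjusted p = 0.0017 and 0.0056 by edgeR). Nucleus replicate 3 was the highest nuclear library for all 3.

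MES.17647.3, of about 18773 nucleotides at a 7-transcript scaffold-end locus between ENSG00000276256 and ENSG00000277475, measured 53.1, 57.5 and 69.6 CPM on chromatin, 9.81, 11.3 and 17.6 in nuclei and 0, 0.817 and 0 in cytoplasm (log2 change 7.07, SE 1.12, adjusted p = 0.0021 by edgeR). MES.17090.1, on chromosome X between PNPLA4 and PCYT1B, had 10.5 to 15.5 CPM on chromatin and 0 to 0.260 CPM in cytoplasm (adjusted p = 0.030), a call that held only when cytoplasm replicate 1 was the library left out (the other 5 gave 0.0510 to 0.0833). More abundant transcripts that were low in cytoplasm, named after their values were seen, were MES.5461.1, numbered next to SERPINB9, and MES.1220.1 (chromosome 1, between DEDD and F11R). MES.5461.1 measured 59.1, 58.7 and 32.0 CPM on chromatin, 21.3, 20.3 and 25.7 CPM in nuclei and 5.19 to 7.16 CPM in cytoplasm (log2 change 2.43, SE 0.26, adjusted p = 0.00050). MES.1220.1 measured 65.3, 78.8 and 36.7 CPM on chromatin, 58.8, 62.7 and 61.6 CPM in nuclei and 15.3 to 16.3 CPM in cytoplasm (log2 change of chromatin against cytoplasm 1.35, SE 0.25, adjusted p = 0.0043), and its chromatin libraries were spread around its nuclear ones.

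**Figure D5:**
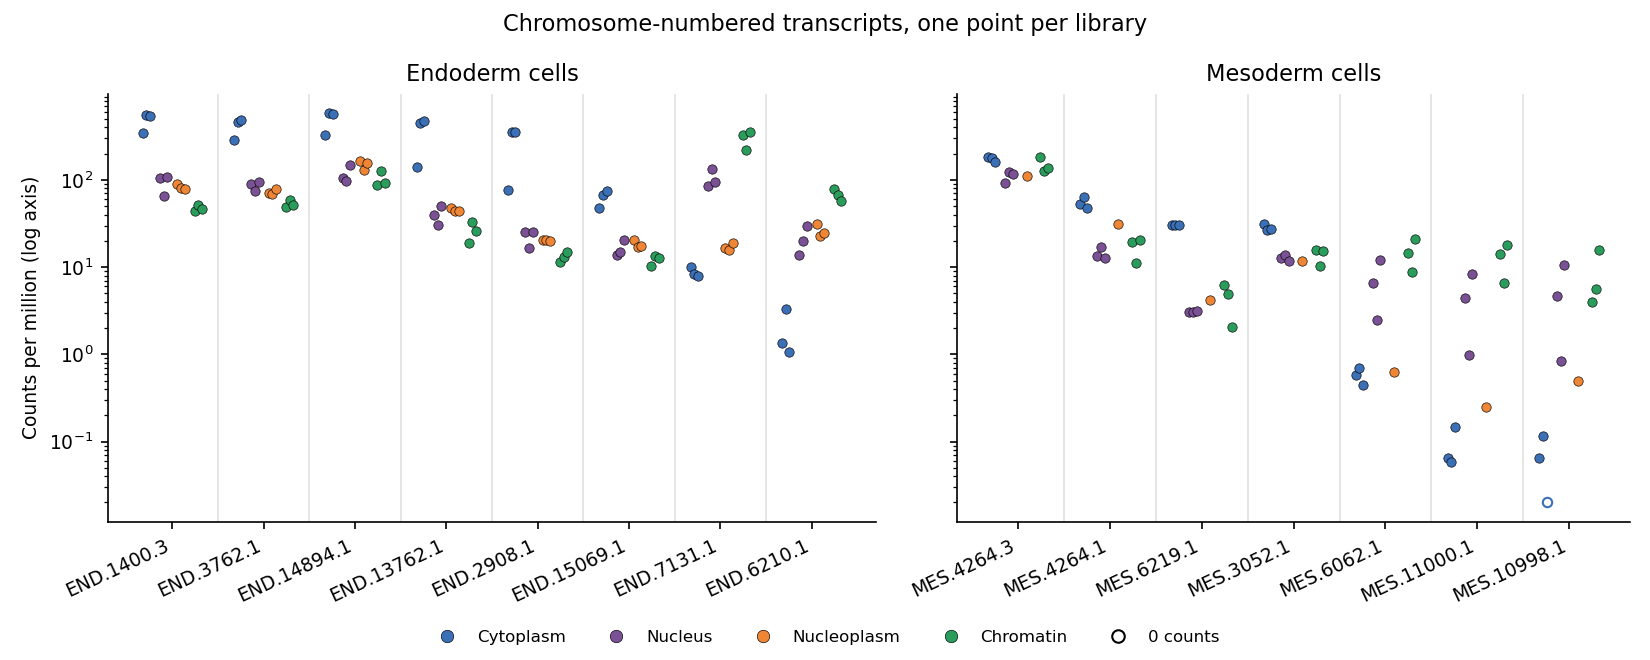
CPM (log axis) in every library for chromosome-numbered endoderm (left) and mesoderm (right) transcripts without an Ensembl gene; colours are fractions and the open circle is a library with 0 counts. END.7131.1 and END.6210.1 are highest on chromatin and lowest in cytoplasm, the other endoderm transcripts are highest in cytoplasm, and in mesoderm the first 4 transcripts are high in cytoplasm and the last 3 on chromatin.

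The 2 cell types could be set against each other only through these patterns, since the assemblies share no transcript ID. The IDs start with END or MES, so none could be shared, whether or not both assemblies hold the same RNA. A flank can match only where the neighbouring gene is in both tables. SOX17, a flank of END.6209 and END.6210, was not in the mesoderm table. Of the chromosome-numbered transcripts, 16 in endoderm and 19 in mesoderm shared at least 1 flanking gene with a transcript of the other set, and 3 and 2 shared both. The pairs with both flanks in common, named after their values were seen, were rare RNAs. END.5766.1, END.5767.1 and MES.6941.1, between CAPZA2, an actin-capping subunit, and LSM8, an RNA-binding protein gene, averaged 0.0075, 0.168 and 0.308 TPM, and END.4643.1 and MES.5583.1, next to MBOAT1, averaged 2.00 and 0.446 TPM. None of the abundant chromosome-numbered transcripts described above belonged to such a pair. Differences in level between endoderm and mesoderm were therefore not tested, and cell type and assembly cannot be told apart in any contrast of the 2 sets.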

How the data were processed

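RNA of fractionated endoderm and mesoderm cells was sequenced (NEBNext Ultra libraries, per the labels' protocols; whether poly(A) RNA was selected or rRNA removed, and strand use in counting, are not given in the sources used here). The deposited tables give counts per assembled transcript and TPM; STAR, RSEM and the build hg38 are named in the submitters' processing notes, with no versions or roles. The authors gave each cell type its own transcript table.

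Counts were tested with edgeR 4.0.16 (R 4.3.3): TMM scaling, filterByExpr with a minimum count of 10, and a quasi-likelihood fit over all fractions of a table, with Benjamini-Hochberg adjustment over all transcripts and a threshold of 0.05. The SE of a log2 change was taken as its size divided by the square root of the F statistic. CPM are counts scaled to the library total, without TMM; mean TPM is the mean of the fraction means, and 1 endoderm transcript had no TPM row. The floor for a group at 0 counts was 3 counts per library. Self-tests used simulated data. Alternatives used DESeq2 1.42.0, limma 3.58.1, other scalings, no filter, fewer groups, a replicate block and each library left out.

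Transcripts named are, per table, the 10 with the highest mean TPM and, per comparison, up to 5 called rises and 5 called falls with no overlap of TMM-scaled values and at least 5 CPM; others are marked in the text. Controls, markers and members were chosen with earlier results of these data known. Planned tests of endoderm against mesoderm, per fraction and for the cytoplasm-nucleus difference, could not be run, as no transcript ID is shared. The fraction code Nei was read as nucleus, by elimination. The single mesoderm nucleoplasm column carries number 3 and its sample number 1; it was used as 1 library without a number. No sequence of these transcripts was used here.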

Additional observations from a re-analysis of the deposited data

Results flagged for a closer look

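The single mesoderm nucleoplasm library was tested against no other fraction, yet 118 of the 189 mesoderm transcripts had over 3 counts in it, and MES.17678.1 had 386079 counts. It was part of the mesoderm fits, the mean TPM and the shares of highest fraction.

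The summed share of counts taken by chromosome-numbered transcripts lay in opposite directions in the 2 cell types: the cytoplasm over nucleus ratio of means was 2.885 in endoderm, with every cytoplasm library above every nuclear one, and 0.753 in mesoderm, with every cytoplasm library below. The difference between the cell types was not tested. Without the 5 transcripts of highest mean cytoplasm CPM the endoderm ratio was 1.35 and its libraries overlapped. Counted per transcript with TMM scaling, the median log2 change was below 0 in both (−0.42 in endoderm, −1.45 in mesoderm). With total counts the median of all 149 endoderm transcripts without a gene tested was 0.06.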

How the results depend on the processing

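Counts of called transcripts moved by over 1.5 times in 2 comparisons. Endoderm chromatin against nucleoplasm gave 21 calls, and 36 with DESeq2, 34 with total counts, 37 with only the compared groups, 60 on log2(TPM + 1) and 43 on log2(TPM + 0.1). Of all transcripts tested 29.9% were called, and 37.4%, 31.4%, 37.5%, 41.2% and 36.2% under these settings in that order. Mesoderm cytoplasm against nucleus gave 54, and 83 on log2(TPM + 0.1) and 24 with the replicate block, where 32.0%, 45.3% and 23.1% of all transcripts were called. Leaving out 1 library gave 45 to 63 calls (endoderm cytoplasm against nucleus, 56), 18 to 23 (chromatin against nucleoplasm), 66 to 79 (endoderm chromatin against cytoplasm, 79), 21 to 52 (mesoderm cytoplasm against nucleus) and 58 to 70 (mesoderm chromatin against cytoplasm, 77). In the same order, 35.1% to 41.3%, 22.9% to 26.2%, 41.9% to 45.5%, 21.0% to 28.3% and 31.6% to 41.5% of all transcripts were then called. With every library the shares of all were 42.1%, 29.9%, 49.7%, 32.0% and 40.4%. Replicate numbers did not pair the libraries (correlations of deviations −0.072 to 0.0384; own number best in 6 of 15), and the replicate block gave 45, 18, 73, 24 and 59 calls in that order. Of 85 named differences 62 kept direction and side of the threshold in every alternative that gave a value. On log2(TPM + 0.1) and log2(TPM + 1) the direction turned for MES.4264.3 (cytoplasm against nucleus −0.36 and −0.36; chromatin against cytoplasm 0.71 and 0.71), MES.8716.1 (−0.43 and −0.40; 0.12 and 0.12) and MES.17652.1 (cytoplasm against nucleus −0.33 and −0.33); the cause was not tested. Leaving the scaffold and mitochondrial end transcripts out of library sizes, chosen after seeing the data, gave 53, 17, 75, 45 and 64 calls among the others. The cytoplasm over nucleus ratio of the chromosome-numbered share went to 2.01 in endoderm and 0.537 in mesoderm without the 5 transcripts with the most counts, and to 1.35 and 0.410 without the 5 of highest mean cytoplasm CPM, both chosen after seeing the data. With total counts the all-transcript median shifted to −0.39 (mesoderm cytoplasm against nucleus) and 0.54 (mesoderm chromatin against cytoplasm), and on log2(TPM + 0.1) the latter was 1.21. Tests of endoderm against mesoderm were not run. At these depths 3 counts are 0.163 to 0.601 CPM, and 193 endoderm and 36 mesoderm transcripts fell below the filter. These 2 numbers are not alike, since the single nucleoplasm library made the filter looser in mesoderm. With only cytoplasm and nucleus fitted, 100 mesoderm transcripts were tested, 10 higher and 44 lower in cytoplasm, and 46.9% of all passed.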
